A study of Mus musculus with 9 samples.

Results

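RNA of adult mouse neural stem cells (NSCs) held for 6 days with BMP4 alone was compared with that of NSCs held for the same time with bFGF and BMP4 together, that is, the effect of leaving bFGF out of the medium that brings these cells to quiescence. The comparison used 6 of the 9 libraries of the study, 3 labelled BMP4 and 3 labelled bFGF/BMP4, both from day 6. The other 3 libraries, labelled bFGF/EGF, came from proliferating NSCs at day 0, and their levels are given beside some results. The genes compared were the 20207 of 55704 in the deposited table with a mean FPKM (fragments scaled to transcript length and library total) of at least 0.1 over the 9 libraries. All cells came from the subventricular zone of C57BL/6 mice of 8 to 9 weeks, with 2 female and 2 male mice pooled for an isolation, and had been passaged in EGF and bFGF before they were plated on poly-L-ornithine and laminin. Each factor was used at 20 ng/mL, and both day-6 groups received BMP4 in the same basal medium with B27 supplement and without EGF. The labels do not say whether the 3 libraries of a group came from separate isolations, so the p-values measure the spread between these libraries, which may be technical.

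BMP4 is a ligand of the TGF-beta superfamily. Its receptors phosphorylate SMAD1, SMAD5 and SMAD9, which enter the nucleus with SMAD4 and turn on genes such as those of the Id family. In NSCs this signal arrests the cell cycle and favours astrocytic genes. bFGF (FGF2) binds FGF receptors and activates the RAS and ERK kinases, which maintain progenitor genes and induce their own inhibitors of the Sprouty, Spred and DUSP families, and it is often given with BMP4 to hold adult NSCs in a quiescent state from which they can be activated again.

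The 6 libraries held 16003706 to 17419822 fragments on genes, so depth was alike in both groups, and mitochondrial genes took 3.07% to 3.73% of them. Over the genes tested, the log2 values of libraries of the same group correlated at 0.950 to 0.964 (Pearson, all 3 groups) and those of the 2 day-6 groups at 0.901 to 0.915. This is a correlation across genes, which are not independent of each other. The labelled cell type was checked with markers. Sox2, a transcription factor of neural stem cells, was at 149, 125 and 137 FPKM in the bFGF/BMP4 libraries and at 121, 146 and 142 FPKM in the BMP4 libraries, and the groups overlapped. Other markers were not level. Summed over 9 neural stem cell markers, bFGF/BMP4 had 602 to 677 FPKM and BMP4 1433 to 1878 FPKM. In BMP4 most of that sum came from Vim (774 to 1029 FPKM) and Fabp7 (372 to 565 FPKM). Of the 9, 5 were called higher and 0 lower, while Hes5 stood at 25.3 to 28.3 and 6.32 to 9.29 FPKM and was not called. The sums were 934 to 971 and 3939 to 4831 FPKM for 10 astrocyte markers, and 55.2 to 60.6 and 150 to 221 FPKM for 10 neuronal markers. In BMP4, most of the astrocyte sum was Gfap (2181 to 3038 FPKM) and most of the neuronal sum Tubb3 (101 to 179 FPKM). Of the 9 neuronal markers tested, 3 were called higher and 1, Rbfox3, lower. Map2 overlapped between the groups (28.1 to 32.3 and 28.0 to 37.4 FPKM). Of the 10 astrocyte markers, 5 were called higher and 2 lower. For 8 markers of oligodendrocyte progenitors the sums were 1351 to 1852 and 430 to 626 FPKM. Of 9 microglial markers, 5 had at most 3 fragments in every day-6 library, among them C1qa, C1qb, Itgam and Aif1, and the summed level of all 9 was 0.412 to 0.540 FPKM in bFGF/BMP4 and 1.49 to 1.75 FPKM in BMP4, where most of it came from Tmem119. Of 9 vascular and mural markers, 4 had at most 3 fragments throughout, and their summed level was 0.883 to 1.25 FPKM in bFGF/BMP4 and 1.30 to 1.87 FPKM in BMP4.

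A gene was called higher or lower where limma, fitted to log2(FPKM + 0.1) over all genes and all 9 libraries, gave a Benjamini-Hochberg adjusted p-value of at most 0.05 and the fold change was at least 2. By this rule 1699 genes (8.41% of those tested) were higher in BMP4 than in bFGF/BMP4 and 1039 (5.14%) were lower, 13.5% together. The median log2 fold change of all genes tested was 0, and every fold change below is on this log2(FPKM + 0.1) scale, which understates the change of weakly expressed genes. A value with ± in parentheses is a log2 fold change with its standard error, and where the groups of a pair of value sets are not named, the bFGF/BMP4 libraries come first. Of the called genes, 1407 and 821 were protein-coding and 175 and 106 were long non-coding RNAs. Differences of more than 8-fold were 246 among the rises and 83 among the falls. Of the genes called higher, 257 had at most 3 fragments in each bFGF/BMP4 library, which is treated here as not detected (a fold against such a group is given as a bound set by 3 fragments in each library), and 94 of those called lower were not detected in BMP4. The range of each group stood clear of the other for 1688 of the 1699 and 1035 of the 1039. With so few libraries the rule for a call makes such separation likely, so these counts are not separate support for the calls. In bulk RNA a lower level may come from fewer cells that express a gene or from less RNA in each cell, and these cannot be told apart.

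**Figure D1:**
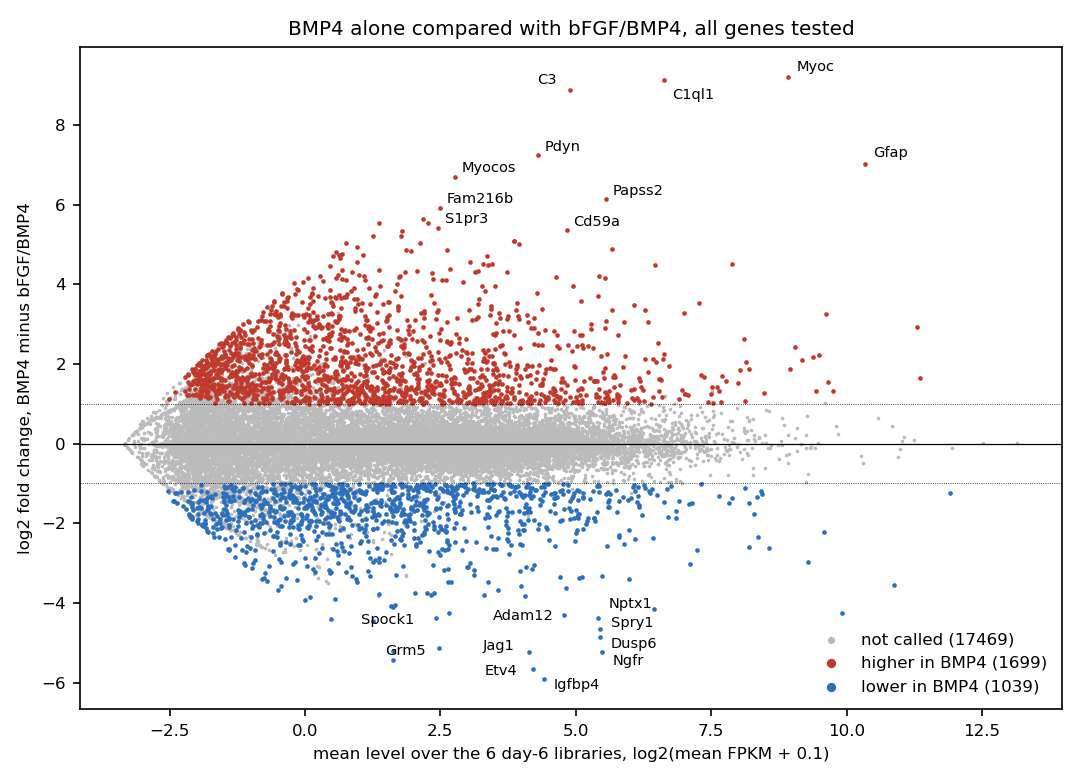
Each point is a gene, with its mean level over the 6 day-6 libraries on the x axis as log2(mean FPKM + 0.1) and the log2 fold change of BMP4 against bFGF/BMP4 on the y axis. Red points (1699) were called higher in BMP4, blue points (1039) lower and grey points were not called, the dotted lines mark a 2-fold difference, and the 20 labelled genes are the 10 largest rises and 10 largest falls by the rule for named genes.

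The largest rises in the absence of bFGF were in genes with low levels in its presence. Gfap, the intermediate filament protein of astrocytes and of adult stem cells of this region, was at 16.8, 19.9 and 21.5 FPKM in the 3 bFGF/BMP4 libraries and at 3038, 2478 and 2181 FPKM in the 3 BMP4 libraries, and at 0.060 to 0.134 FPKM on day 0. Its level thus stood far above both other groups only in the absence of bFGF, with a log2 fold change of 7.03 ± 0.17, adjusted p = 3.53e-08 in limma. Myoc, a secreted olfactomedin-family glycoprotein best known from the eye, was at 2.43, 1.19 and 0.983 FPKM with bFGF and at 1504, 729 and 662 FPKM without it, a log2 fold change of 9.20 ± 0.40, adjusted p = 1.18e-06 in limma. C1ql1, a secreted C1q-like protein that acts at synapses, was at 0.296, 0.487 and 0.0923 FPKM with bFGF and at 200.4, 212 and 180.4 FPKM without it, with a log2 fold change of 9.12 ± 0.40, adjusted p = 1.18e-06 in limma. In none of the 3 genes did the groups overlap, which the rule for choosing the largest rises required. C3, the central component of the complement cascade, was not detected in bFGF/BMP4, where its 3 libraries held 1, 1 and 0 fragments, and was at 109, 36.3 and 32.5 FPKM in BMP4. Set against a floor of 3 fragments in each bFGF/BMP4 library, C3 was at least 1560.0-fold higher in BMP4 (adjusted p = 1.51e-06 by limma).

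Pdyn, the precursor of the dynorphin opioid peptides, was at 0.0647, 0.158 and 0.283 FPKM in bFGF/BMP4 and at 48.4, 32.8 and 36.1 FPKM in BMP4, a log2 fold change of 7.25 ± 0.32. Papss2, which makes the sulphate donor PAPS, was at 0.769, 1.63 and 1.39 FPKM with bFGF and at 85.7, 116 and 77.4 FPKM without it (6.13 ± 0.34). Cd59a, a membrane-anchored inhibitor of the complement attack complex, was at 0.928, 1.22 and 1.76 FPKM and then 55.6, 59.7 and 51.9 FPKM (5.35 ± 0.22). These 3 genes, like S1pr3, a receptor for sphingosine 1-phosphate (5.42 ± 0.35), and Fam216b (5.93 ± 0.34), were at most at 0.680 FPKM in every bFGF/EGF library. In limma their adjusted p-values ran from 1.18e-06 to 8.82e-06. Myocos, also among the 10 largest rises, lies on the strand opposite to Myoc and shares exonic sequence with it. Whether the authors counted fragments by strand is not given in the sources used here, so its 13.4 FPKM in BMP4 cannot be told apart from Myoc fragments.

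**Figure D2:**
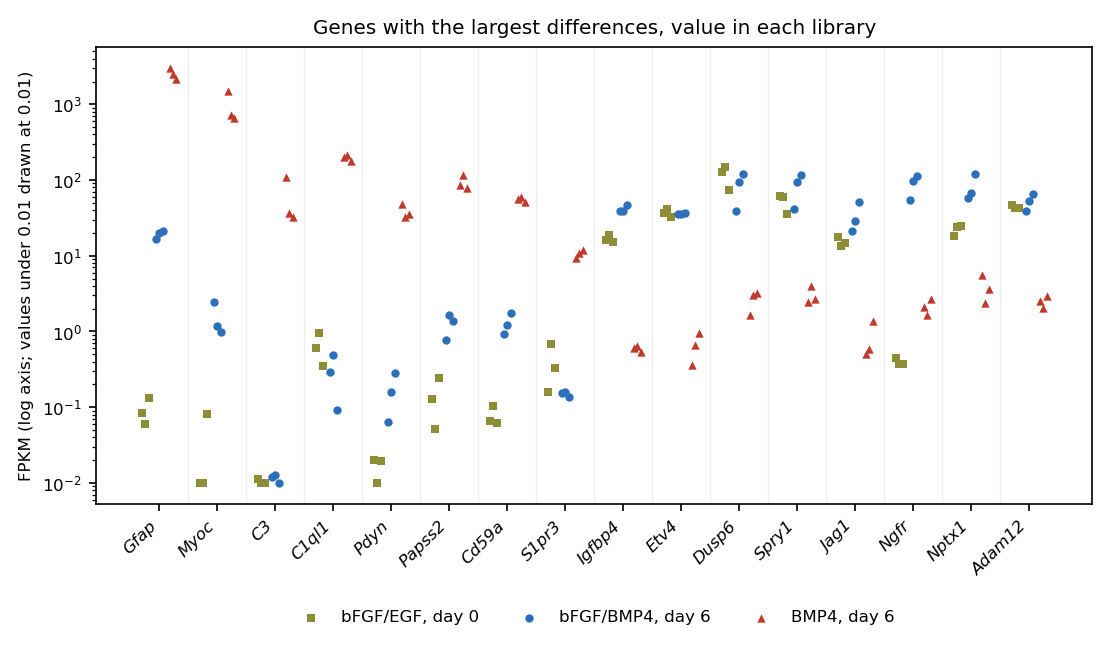
FPKM on a log axis in each of the 9 libraries for 8 genes with the largest rises, on the left, and 8 with the largest falls, on the right, with squares for bFGF/EGF at day 0, circles for bFGF/BMP4 and triangles for BMP4. The triangles stand apart from the circles for every gene shown, which the rule for choosing them required. For Etv4, Dusp6, Spry1 and Adam12 the circles lie at the level of the squares or close to it.

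The 10 largest falls were chosen among genes with a mean of at least 5 FPKM over the day-6 libraries. All were therefore well expressed in bFGF/BMP4, and some were low on day 0, when bFGF was also present. Igfbp4, a binding protein of insulin-like growth factors, was at 39, 39 and 46.7 FPKM in bFGF/BMP4 and at 0.60, 0.643 and 0.535 FPKM in BMP4, a log2 fold change of -5.91 ± 0.13, adjusted p = 2.86e-08 in limma. Jag1, a ligand of the Notch receptors, went from 21.3, 29.2 and 51.7 FPKM to 0.497, 0.583 and 1.37 FPKM (-5.24 ± 0.37, adjusted p = 1.25e-05 in limma). Ngfr, the p75 neurotrophin receptor, was at 54.3, 96.3 and 112 FPKM with bFGF and at 2.13, 1.67 and 2.69 FPKM without it (-5.24 ± 0.27), whereas on day 0 it was at 0.367 to 0.444 FPKM. Ngfr thus had its highest level in bFGF/BMP4, as did Spock1, a secreted proteoglycan, at 7.25, 11.2 and 11.7 FPKM in bFGF/BMP4, 0.265, 0.332 and 0.594 FPKM in BMP4 and at most 0.113 FPKM on day 0. Nptx1, a secreted pentraxin that clusters glutamate receptors, was at 58.5, 66.9 and 119 FPKM and then 5.49, 2.37 and 3.65 FPKM (-4.38 ± 0.32). Adam12, a membrane metalloprotease, was at 39.5, 52.5 and 64.9 FPKM and then 2.49, 2.07 and 2.96 FPKM (-4.31 ± 0.19). Groups that did not overlap were a condition for the 10 largest falls, of which Grm5, Etv4, Dusp6 and Spry1 made up the rest.

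Genes known to be induced by FGF through ERK were followed with a list of 20. Of these, 12 (60%) were lower in BMP4 and 3 (15%) higher, against 5.14% and 8.41% of all genes. Their median log2 fold change was -1.47. Etv4, an ETS transcription factor, had the lowest log2 fold change in the list. It was at 36, 35.2 and 37 FPKM with bFGF and at 0.357, 0.656 and 0.957 FPKM without it (-5.66 ± 0.25, adjusted p = 1.34e-06 in limma), and its relative Etv5 was at 165, 154 and 175 FPKM and 6.84, 7.81 and 14.4 FPKM (-4.15 ± 0.25). With bFGF present both stood near their day-0 levels of 37, 41.2 and 32.4 FPKM for Etv4 and 209.9, 244 and 165 FPKM for Etv5. Dusp6, the phosphatase that inactivates ERK in the cytoplasm, was at 39.2, 95.5 and 120.1 FPKM in bFGF/BMP4 and at 1.67, 3.0 and 3.23 FPKM in BMP4 (-4.86 ± 0.42, adjusted p = 3.72e-05 in limma).

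Among the Sprouty proteins, which block the pathway upstream of ERK, the size of the fall differed from gene to gene. Spry1 was at 41.5, 94.4 and 117 FPKM with bFGF and at 2.44, 3.93 and 2.69 FPKM without it (-4.66 ± 0.37), and Spry4 at 10.1, 14 and 23.1 FPKM and 1.26, 1.03 and 2.21 FPKM (-3.30 ± 0.36). Spry2 kept more of its level, with 86.2, 73.4 and 89.8 FPKM in bFGF/BMP4 and 20.8, 25.5 and 30.1 FPKM in BMP4 (-1.71 ± 0.18, adjusted p = 0.000112 in limma). Spred1, Spred2 and Spred3, their relatives, were lower as well, with log2 fold changes of -1.32, -1.72 and -1.39, as were Dusp4 (-2.64) and Etv1 (-2.33). The 3 members that went the other way were Ier3 (2.70 ± 0.37), Dusp5 (1.45 ± 0.22) and Fos (1.29 ± 0.32), of which Fos and Ier3 are immediate early genes that respond to many stimuli. Ier3 was at 1.38, 0.749 and 1.38 FPKM with bFGF and 8.17, 12.8 and 4.66 FPKM without it. Egr1, Myc, Phlda1, Fosl1 and Il17rd were not called, and all but Il17rd overlapped between the groups.

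The receptors that receive bFGF changed little beside their targets. Fgfr1 was at 44, 46.6 and 50.5 FPKM in bFGF/BMP4 and at 31.9, 31.5 and 33 FPKM in BMP4, with a log2 fold change of -0.55 ± 0.11, adjusted p = 0.00432 in limma, which is below the fold threshold. Fgfr3 overlapped between the groups (-0.07 ± 0.17, adjusted p = 0.839 in limma). Fgfr2 was at 7.91, 9.74 and 8.51 FPKM and 17.9, 17.3 and 17.6 FPKM, a log2 fold change of 1.01 ± 0.25, adjusted p = 0.0173 in limma that lies on the threshold. Its call was lost when any of 5 day-6 libraries, all but bFGF/BMP4 replicate 2, was left out, with log2 fold changes of 0.94 to 1.02. The decoy receptor Fgfrl1 was lower without bFGF (-1.42 ± 0.27). Of the ligands, the endogenous Fgf2 transcript was at 0.661, 1.03 and 0.722 FPKM and 2.81, 2.56 and 1.73 FPKM (1.44 ± 0.35, adjusted p = 0.0142 in limma), a call that was lost without bFGF/BMP4 replicate 1 (1.33) or 3 (1.38) and without BMP4 replicate 1 (1.31) or 2 (1.37). Fgf2 overlaps Nudt6 on the other strand. In all, 3 of the 13 tested FGF ligands and receptors were called higher (23.1%) and 1 lower (7.69%), against 8.41% and 5.14% of all genes. The count of 3 was 0 without BMP4 replicate 1 or bFGF/BMP4 replicate 3 and 1 without BMP4 replicate 2 or bFGF/BMP4 replicate 1. Egfr was at 7.31, 5.62 and 6.03 FPKM and 6.96, 4.91 and 7.14 FPKM and overlapped, and Lrig1, an inhibitor of EGF receptors, was lower in BMP4 (187, 216 and 224 FPKM against 64.4, 81.8 and 79.2 FPKM, -1.48 ± 0.14).

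Because BMP4 was in both media, genes of its own pathway were examined with a list of 27, of which 26 were tested. Of those tested, 5 were called higher (19.2%), 3 lower (11.5%) and 18 neither, against 8.41% and 5.14% of all genes. Their median log2 fold change was 0.33. Among the direct targets, Id3 was at 139, 104 and 72.4 FPKM with bFGF and 259, 389.9 and 205 FPKM without it (1.43 ± 0.29, adjusted p = 0.00617 in limma), and Id4 at 53.4, 59.7 and 46.3 FPKM and 141, 141 and 115 FPKM (1.31 ± 0.15). Id1 (186, 137 and 105 FPKM against 198, 309 and 177 FPKM) and the inhibitory Smad6 (18.6, 33.2 and 25.3 FPKM against 39.4, 42.4 and 30.4 FPKM) overlapped between the groups, with log2 fold changes of 0.67 ± 0.28 and 0.57 ± 0.21 and adjusted p-values of 0.129 and 0.0897 in limma. Id2 and Smad7 overlapped too. The largest change in the list was in a ligand, Bmp6, which overlaps Txndc5 on the other strand and was at 0.0638, 0.117 and 0.0523 FPKM in bFGF/BMP4 and at 8.84, 6.21 and 4.74 FPKM in BMP4 (5.21 ± 0.34, adjusted p = 8.82e-06 in limma). Another ligand, Bmp7, was lower without bFGF, at 4.01, 3.42 and 5.21 FPKM and then 1.52, 0.707 and 0.935 FPKM (-1.94 ± 0.24), and the secreted BMP antagonist Grem1 was higher (0.405, 0.44 and 0.361 FPKM against 2.95, 1.46 and 1.4 FPKM, 1.94 ± 0.33). Bmp4 itself was not among the genes tested. The count of 3 lower members was 1 when bFGF/BMP4 replicate 2 or 3 was left out.

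**Figure D3:**
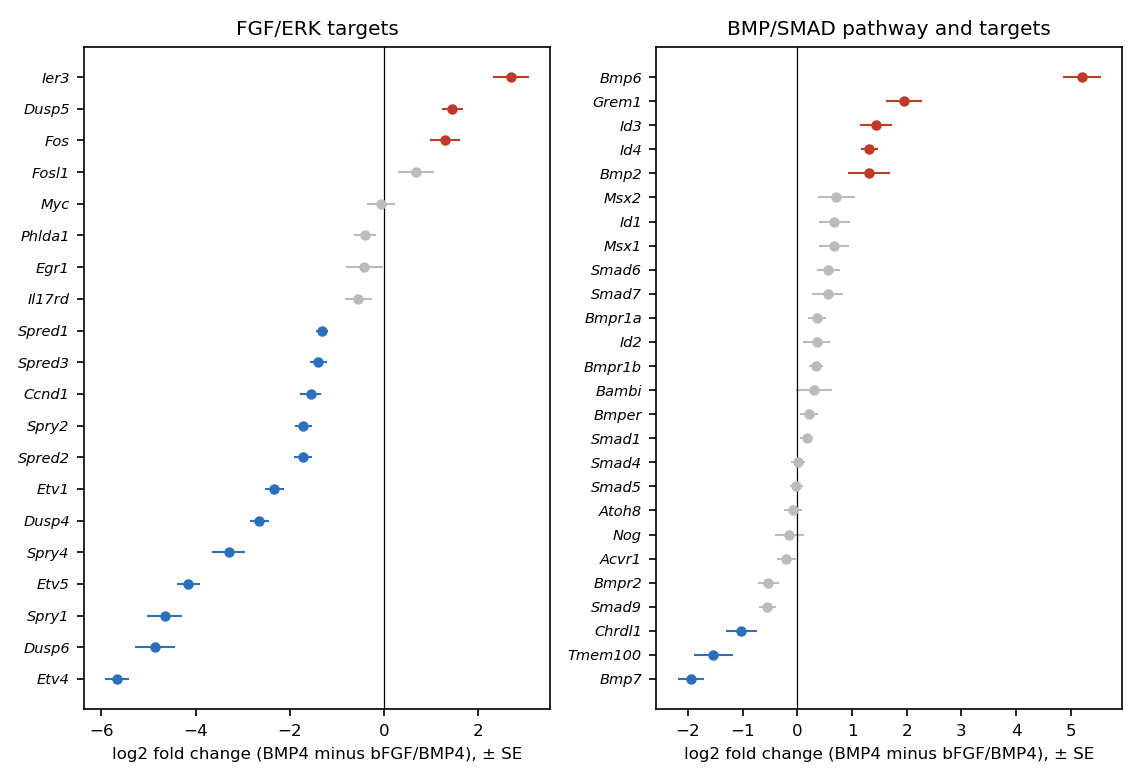
Log2 fold change of BMP4 against bFGF/BMP4 for each tested member of the list of FGF/ERK targets (20 genes, left) and of BMP/SMAD pathway genes and targets (26 genes, right), with the standard error of the limma fit as a bar. Red was called higher, blue lower and grey neither, and 12 of the 20 members on the left lie in the blue range while 18 of the 26 on the right are grey.

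The insulin-like growth factor (IGF) pathway had large changes in both directions, mostly in secreted binding proteins. Igfbp2 was among the most abundant transcripts of bFGF/BMP4 at 1533, 1915 and 2041 FPKM and was at 49.4, 137 and 126 FPKM in BMP4 (-4.26 ± 0.35, adjusted p = 2.95e-05 in limma). Igfbp3 fell with it, from 860.4, 1207 and 1243 FPKM to 86, 179 and 169.7 FPKM (-2.98 ± 0.29). In the opposite direction, Igfbp5 was at 3.29, 1.7 and 2.22 FPKM and 42, 14.9 and 24.5 FPKM (3.37 ± 0.38), and Igfbp7, which overlaps Polr2b on the other strand, at 0.978, 1.24 and 1.46 FPKM and 18.1, 18 and 20.01 FPKM (3.84 ± 0.20). The ligand Igf1 was higher without bFGF (2.84 ± 0.30) and the insulin receptor Insr lower (-1.52 ± 0.20), while Igf1r was not called. Of 12 tested members, 3 were called higher (25%) and 4 lower (33.3%), against 8.41% and 5.14% of all genes. Igfbp2 was also the source of nearly all of the summed level of the markers listed for fibroblasts and meninges, which was 1533 to 2041 FPKM in bFGF/BMP4 and 49.95 to 138 FPKM in BMP4, while Dcn, Lum and Col3a1 had no fragments in 5 or more of the 6 day-6 libraries.

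In the Notch pathway, 2 of 20 tested members (10%) were called higher, a share near the 8.41% of all genes. Lower were 4 (20%, against 5.14%). Beside Jag1, the ligand Dll1 was lower (5.8, 5.36 and 4.64 FPKM against 1.58, 1.76 and 2.74 FPKM, -1.37 ± 0.22). Hes5, a transcriptional repressor that Notch induces, was at 25.3, 26.9 and 28.3 FPKM in bFGF/BMP4 and at 7.32, 9.29 and 6.32 FPKM in BMP4, groups that did not overlap, but with a standard error of 0.66 its log2 fold change of -1.82 did not pass (adjusted p = 0.0841 in limma). The bFGF/EGF libraries of Hes5, which share the estimate of spread, ranged from 0.166 to 2.29 FPKM, and without bFGF/EGF replicate 3 the adjusted p-value was 0.00016. Mfng, which modifies Notch with sugars, was higher without bFGF (2.54 ± 0.43), at 0.153, 0.115 and 0.0239 FPKM and 0.868, 1.57 and 0.726 FPKM. The count of 4 lower members was 2 without bFGF/BMP4 replicate 3 or BMP4 replicate 3, and that of 2 higher members was 1 without bFGF/BMP4 replicate 3 or BMP4 replicate 1 or 2.

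Of 35 tested genes of the Wnt pathway, 9 were called higher (25.7%) and 4 lower (11.4%), against 8.41% and 5.14% of all genes. Secreted inhibitors moved in opposite directions. Wif1, which binds Wnt ligands, was at 7.54, 7.04 and 7.67 FPKM with bFGF and 1.02, 0.432 and 0.20 FPKM without it (-3.74 ± 0.41), and at most 0.0233 FPKM on day 0. Sfrp5, of another family of Wnt-binding proteins, was not detected with bFGF and at least 10.2-fold higher without it. Among the ligands, Wnt4 was at 0.119, 0.0932 and 0.0486 FPKM and 1.82, 1.97 and 1.21 FPKM (3.23 ± 0.32). In the hedgehog pathway, 2 of 13 members were higher and 2 lower (15.4% each, against 8.41% and 5.14% of all genes). Those that fell were Gli3, a transcription factor that mostly represses hedgehog targets (6.71, 7.14 and 6.66 FPKM against 1.87, 1.5 and 2.41 FPKM, -1.80 ± 0.19), and Ptch1, the receptor and a target of hedgehog (16.5, 22 and 21.9 FPKM against 8.92, 7.22 and 10.4 FPKM, -1.18 ± 0.17).

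Most genes of mitosis were lower without bFGF. Of 34 genes of mitosis, 31 were lower (91.2%, against 5.14% of all genes) and none higher. Their median log2 fold change was -1.92, and Nuf2, Mad2l1 and Bub3 were not called. Top2a, the topoisomerase that separates sister chromosomes, was at 9.57, 15.3 and 20.2 FPKM with bFGF and 2.5, 2.12 and 2.97 FPKM without it (-2.47 ± 0.35, adjusted p = 0.000675 in limma), and at 30.7 to 76.5 FPKM on day 0. Of 36 genes of DNA replication, 17 were lower (47.2%, against 5.14% of all genes) and none higher, with a median of -0.87. Mcm5, a subunit of the replicative helicase, was at 5.27, 11.3 and 10.5 FPKM and 1.91, 2.12 and 1.85 FPKM (-2.07 ± 0.30). The count of 17 was 7 with a pseudocount of 1, 9 without bFGF/BMP4 replicate 2 or 3 or BMP4 replicate 3, and 10 without BMP4 replicate 1. In both Mcm5 and Top2a, bFGF/BMP4 replicate 1 was the lowest of its group. Of 12 CDK inhibitors and pocket proteins, 2 were higher (16.7%) and 1 lower (8.33%), against 8.41% and 5.14% of all genes. Gas1, a membrane protein of growth-arrested cells, was at 13.8, 11.8 and 12.5 FPKM and 29.2, 29.6 and 23.6 FPKM (1.10 ± 0.16). Cdkn1b and Cdkn1c overlapped between the groups, and Cdkn1a, with 114, 94.5 and 95.6 FPKM against 133, 165 and 133 FPKM, had an adjusted p-value of 0.0456 in limma but a log2 fold change of 0.50 ± 0.15, under the fold threshold.

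Genes of astrocyte function did not move as a group. Of 43, 17 were called higher (39.5%) and 9 lower (20.9%), against 8.41% and 5.14% of all genes. Their median log2 fold change was 0.18. Gfap, Aqp4, the water channel of astrocyte endfeet, Gja1, the gap junction protein connexin 43, and Apoe, a lipid carrier, were among those that rose. Aqp4 was at 192, 239 and 205 FPKM with bFGF and 829.6, 700.4 and 805 FPKM without it (1.88 ± 0.17, adjusted p = 5.2e-05 in limma), Gja1 at 29.8, 22.3 and 21.3 FPKM and 67.8, 82.7 and 83.6 FPKM (1.68 ± 0.17), and Apoe at 1611, 1158 and 1046 FPKM and 3744, 4709 and 3444 FPKM (1.65 ± 0.23). Entpd2, an enzyme that degrades extracellular ATP, rose from 0.0292, 0.0919 and 0.192 FPKM to 5.38, 3.13 and 2.56 FPKM (4.22 ± 0.38). In contrast, transporters and channels of mature astrocytes were among the genes that were lower without bFGF. Slc1a2, the main glutamate transporter of the forebrain, was at 195, 172 and 159 FPKM and 67.2, 52.4 and 77 FPKM (-1.43 ± 0.18, adjusted p = 0.000309 in limma), and Gjb6, connexin 30, at 4.33, 2.56 and 1.98 FPKM and 0.276, 0.369 and 0.068 FPKM (-3.23 ± 0.43). The other glutamate transporter Slc1a3 (118, 121 and 152 FPKM against 123, 108 and 108 FPKM) and glutamine synthetase, Glul (729, 453 and 383 FPKM against 314, 489.6 and 446 FPKM), overlapped between the groups.

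Most of the listed genes that astrocytes induce after injury or inflammation were higher without bFGF. Of 35 tested genes of the reactive astrocyte list, 24 (68.6%, against 8.41% of all genes) were higher in BMP4, 2 were lower and 9 were not called. Their median log2 fold change was 2.51, which did not change with the 5 members not detected in bFGF/BMP4 at their bounds. Members low with bFGF, such as C3, passed the filter through BMP4, so the count is partly set by the filter. It was 16 among genes with a mean of at least 1 FPKM and 18 with a pseudocount of 1. Serpina3n, a secreted protease inhibitor, was at 2.99, 5.02 and 5.14 FPKM with bFGF and 106, 79.4 and 60.3 FPKM without it (4.20 ± 0.25, adjusted p = 5.31e-06 in limma). Hspb1, a small heat shock protein, was at 2.35, 3.1 and 3.49 FPKM and 87.5, 149.6 and 56.7 FPKM (4.90 ± 0.30), and Cd44, a receptor for hyaluronan, at 3.59, 5.03 and 3.94 FPKM and 35.9, 32 and 27.4 FPKM (2.90 ± 0.16). Osmr, the receptor of oncostatin M, rose from 0.0617, 0.070 and 0.0786 FPKM to 1.8, 1.39 and 1.31 FPKM (3.22 ± 0.29), while the transcription factor Stat3 was not called (0.27 ± 0.13). The members that fell were Sphk1, the kinase that makes sphingosine 1-phosphate, at 45.3, 58.3 and 53.3 FPKM and then 3.4, 4.85 and 4.33 FPKM (-3.62 ± 0.25), and Amigo2 (-1.28 ± 0.30), whose call was lost without bFGF/BMP4 replicate 3 (-1.12). S1pr3, the receptor for the product of Sphk1, was thus higher and the kinase lower. H2-D1, Psmb8 and H2-T23, genes of antigen presentation in the same list, were not called.

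Complement genes were tested for 10 of 21 listed members. Of these, 8 were higher (80%) and 2 lower (20%), against 8.41% and 5.14% of all genes. Here too C3 and Serping1 passed the filter only through BMP4, and 5 were called higher among genes with a mean of at least 1 FPKM. The other 11 members, among them C1qa, C1qb and C1qc of microglia, were below the limit for testing. C4b was at 0.448, 0.984 and 0.955 FPKM with bFGF and 18.3, 14.7 and 18.9 FPKM without it (4.33 ± 0.28, adjusted p = 8.12e-06 in limma). C4b has a near-identical neighbour gene, and the counting may divide fragments between them. Clu, a secreted chaperone that inhibits the attack complex, was at 18, 25.1 and 32.8 FPKM and 284, 281 and 287 FPKM (3.53 ± 0.24), and Serping1, the inhibitor of the C1 proteases, was not detected with bFGF and was at least 19.2-fold higher without it. Components and inhibitors of the cascade were therefore both among the rises. C2 and Masp1 were lower, and the call of C2 was lost when any 1 of the bFGF/BMP4 libraries or BMP4 replicate 2 was left out. The microglial markers summed to at most 1.75 FPKM in these libraries, and C1qa, C1qb and Itgam had no fragments.

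**Figure D4:**
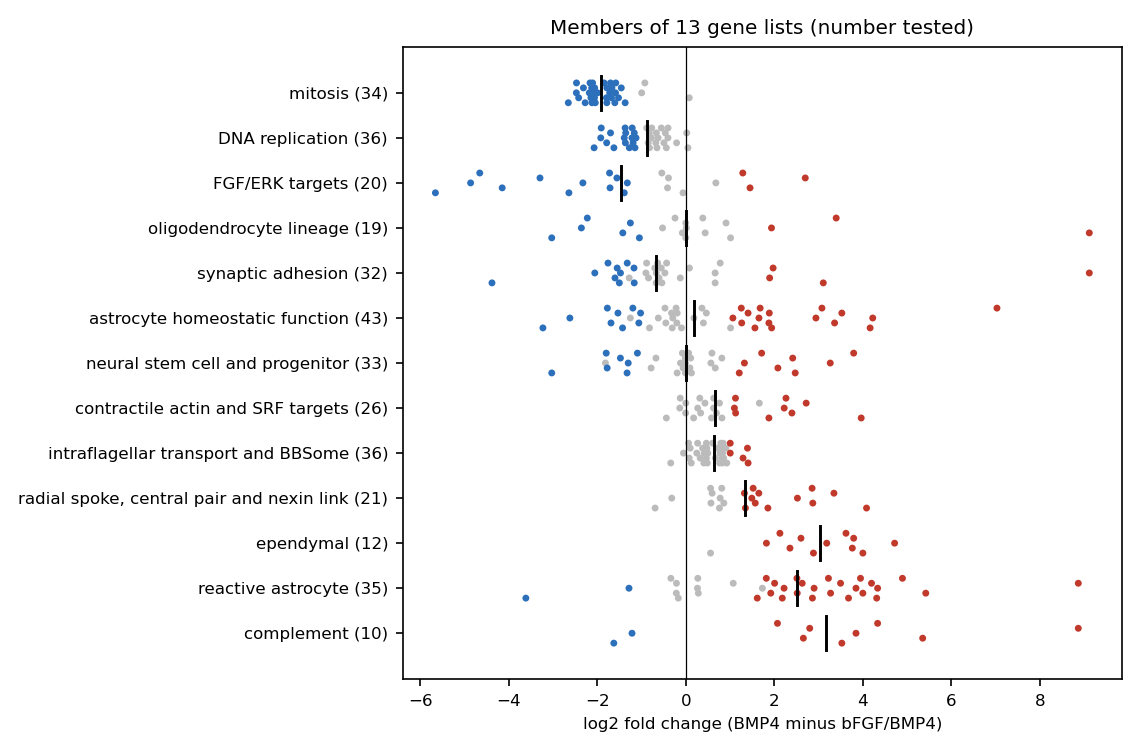
Log2 fold change of BMP4 against bFGF/BMP4 for every tested member of 13 gene lists, with the number tested in parentheses and the median of each list as a black bar. Red points were called higher, blue lower and grey neither, so that mitosis (median -1.92) lies to the left, reactive astrocyte (2.51) and ependymal (3.03) to the right, and astrocyte homeostatic function (0.18) on both sides.

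Progenitor genes divided as well, with 8 of 33 higher (24.2%), 7 lower (21.2%) and a median of -0.01, against 8.41% and 5.14% of all genes called. The filament proteins of neural stem cells rose. Nes, nestin, was at 2.96, 3.76 and 3.94 FPKM with bFGF and 16, 20.7 and 10.7 FPKM without it (2.08 ± 0.21, adjusted p = 0.000103 in limma), still far from its day-0 level of 145 to 157 FPKM, and Vim, vimentin, was at 150.2, 163 and 187 FPKM and 872, 1029 and 774 FPKM (2.42 ± 0.17), against 647, 763 and 620.0 FPKM on day 0. Sox9, a transcription factor of stem cells and astrocytes, rose from 30.1, 23.2 and 19.99 FPKM to 94.3, 62.9 and 83.7 FPKM (1.71 ± 0.21), as did the surface proteins Cd24a (2.27, 2.7 and 2.32 FPKM to 37.6, 48.9 and 23.1 FPKM, 3.79 ± 0.25) and Prom1 (0.121, 0.191 and 0.142 FPKM to 2.88, 3.34 and 1.25 FPKM, 3.26 ± 0.36).

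The transcription factors Olig2 and Olig1, which mark progenitors responsive to growth factors and the oligodendrocyte lineage, were lower without bFGF. Olig2 had the lowest log2 fold change of the progenitor list, followed by Gli3, given above, while Olig1 belongs to the oligodendrocyte list. Olig2 was at 195, 218 and 323 FPKM with bFGF and 20.3, 24.4 and 50.3 FPKM without it (-3.03 ± 0.33, adjusted p = 0.000138 in limma), and Olig1 at 1113, 1179.7 and 1469 FPKM and 192, 266 and 369 FPKM (-2.23 ± 0.26). On day 0 Olig2 was at 597, 654 and 445 FPKM. The cells did not show later oligodendrocyte markers in either group, since Sox10 had no fragments in any day-6 library and Mag, Mog and Mobp were below the limit for testing. Of 19 tested genes of that lineage, 3 were higher (15.8%) and 6 lower (31.6%), against 8.41% and 5.14% of all genes. Neuronal genes had 8 of 22 higher and 3 lower. Their median log2 fold change was 0.532, or 0.401 with the 2 members not detected in bFGF/BMP4 at their bounds. With a pseudocount of 1, 6 were higher and 1 lower. The largest called falls of the neuronal list were Rbfox3 (-1.47 ± 0.33, adjusted p = 0.0097 in limma) and Gad2 (-1.22 ± 0.29, adjusted p = 0.013 in limma). Cd24a, given above, had the largest rise in that list too, followed by Tubb3, a neuronal tubulin, at 19.96, 17.5 and 13.4 FPKM and 154, 179 and 101 FPKM (3.06 ± 0.23, adjusted p = 1.75e-05 in limma). Dcx, a protein of migrating neuroblasts, was at 0.118, 0.124 and 0.108 FPKM in bFGF/BMP4 and at 1.99, 0.342 and 0.384 FPKM in BMP4 (1.82 ± 0.56, adjusted p = 0.0429 in limma). BMP4 replicate 1 stood well above the other 2 for Dcx, without it the log2 fold change was 1.10, and the call was lost in 7 of the 9 fits that left out a library. Stmn2, Eomes, Tbr1 and Neurod1 were below the limit for testing.

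Genes of ependymal cells, the ciliated lining of the ventricles, were called higher without bFGF for 11 of 12 tested members (91.7%, against 8.41% of all genes). Their median log2 fold change was 3.03 (2.89 with members not detected in bFGF/BMP4 at their bounds), while 6 more members were too low to test. Members that are low with bFGF, such as Ccdc153, passed the filter through their level in BMP4, so these counts are partly set by the filter, and 7 were called among genes with a mean of at least 1 FPKM. S100a6, a calcium-binding protein, was at 0.729, 0.763 and 0.448 FPKM and 18.4, 25.6 and 14.9 FPKM (4.72 ± 0.27, adjusted p = 4.06e-06 in limma), and Tm4sf1, a membrane protein, at 0.194, 0.501 and 0.196 FPKM and 6.86, 6.51 and 4.57 FPKM (4.0 ± 0.30). Of 8 ependymal markers, the 5 tested were called higher, but Tmem212 had 0 fragments and Mia at most 1 in each day-6 library. Foxj1, the transcription factor of motile cilia, was at 10.3, 9.44 and 10.4 FPKM with bFGF, 61.2, 51.4 and 52.8 FPKM without it and 7.87, 10.8 and 6.13 FPKM on day 0 (2.45 ± 0.18, adjusted p = 1.58e-05 in limma between the day-6 groups). The regulators that act before it in multiciliated cells, Mcidas and Gmnc, were below the limit for testing. Of 17 tested regulators of multiciliogenesis, 4 were higher (23.5%) and 2 lower (11.8%), against 8.41% and 5.14% of all genes, with a median of 0.15. The lower members were Ccdc78 (-1.76 ± 0.27) and Plk4 (-1.61 ± 0.36), and only Ccdc78 was lower without BMP4 replicate 1. Some parts of the motile axoneme rose at low levels. Of 21 tested genes of the radial spokes, central pair and nexin link, 12 were higher (57.1%, against 8.41% of all genes) and none lower. Their median was 1.35, and 9 more were too low to test. With a pseudocount of 1 the count was 4, and among genes with a mean of at least 1 FPKM it was 3, since members low with bFGF passed the filter through BMP4. Drc1, of the nexin link, was not detected with bFGF and was at 2.69, 2.16 and 1.97 FPKM without it, at least 31.2-fold higher. Iqcg, of the same structure, was at 0.343, 0.243 and 0.265 FPKM and 2.74, 2.73 and 2.6 FPKM (2.87 ± 0.23), and overlaps other genes on the opposite strand. Of 19 tested genes of the dynein arms and their assembly, 6 were higher and none lower, and the number higher was 2 where a mean of at least 1 FPKM was required and 3 where the pseudocount was 1. Intraflagellar transport genes, which primary cilia also use, had 5 of 36 higher (13.9%, against 8.41% of all genes), with a median of 0.64. The count was 3 without bFGF/BMP4 replicate 2 and on the TPM and median-ratio scales.

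The bases before the RefSeq start sites of Drc1 and Iqcg are shown because both carry an arm of the X-box that RFX factors bind. The RFX factors Rfx2 (1.38 ± 0.18) and Rfx4 (1.30 ± 0.14) were higher without bFGF, but whether they act on these genes was not tested. The searched letters, GTTGCC on either strand, are in capitals. The Drc1 stretch is chr5:30281143-30281392 on the + strand and that of Iqcg chr16:33056187-33056436 on the - strand, both of the GRCm38.p6 build, and each ends at the base before the start site.
Drc1: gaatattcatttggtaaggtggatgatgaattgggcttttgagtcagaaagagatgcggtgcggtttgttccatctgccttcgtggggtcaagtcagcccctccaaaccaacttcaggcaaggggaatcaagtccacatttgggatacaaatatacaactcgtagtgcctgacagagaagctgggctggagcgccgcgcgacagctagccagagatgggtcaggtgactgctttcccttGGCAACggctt
Iqcg: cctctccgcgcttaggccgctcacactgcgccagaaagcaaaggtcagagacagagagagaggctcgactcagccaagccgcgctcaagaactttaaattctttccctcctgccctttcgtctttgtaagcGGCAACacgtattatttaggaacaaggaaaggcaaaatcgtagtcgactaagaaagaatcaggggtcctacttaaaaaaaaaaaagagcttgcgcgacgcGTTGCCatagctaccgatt
These letters occurred in the 250 bases before the start of 13 of 58 genes (22.4%) of the axoneme and intraflagellar transport lists with an entry, and of 1479 of 11738 tested genes (12.6%). Genes with different symbols in RefSeq and GENCODE were left out of these counts. In the cilia lists they included Ttc26, Ttc30a2 and Iqca, which held the letters, and Hspb11, Ttc30a1 and Wdr66, which did not. The share was 25% (3 of 12) for FGF/ERK targets, a list that mostly fell. It was 10.3% (3 of 29) for the reactive astrocyte list, which mostly rose. A match is a description of the sequence, not a bound site.

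Some genes of the contractile apparatus were higher without bFGF. Of 26 tested genes of contractile actin and targets of serum response factor, 9 were higher (34.6%, against 8.41% of all genes) and none lower. Their median log2 fold change was 0.66. Acta2, smooth muscle actin, was at 0.709, 1.66 and 0.898 FPKM with bFGF and 16.9, 24.5 and 12.8 FPKM without it (3.96 ± 0.34, adjusted p = 3.72e-05 in limma), and at 8.7, 16.7 and 14.4 FPKM on day 0. It overlaps Stambpl1 on the other strand. Ccn2, a secreted matrix protein induced by YAP and TGF-beta, was at 6.5, 23.4 and 15.8 FPKM and 81.2, 143 and 60.5 FPKM (2.72 ± 0.49). Myl9, a myosin light chain of contractile cells, was at 0.696, 0.673 and 0.761 FPKM and 3.66, 5.1 and 2.66 FPKM (2.22 ± 0.24). In contrast Tagln, another smooth muscle protein, stayed under 1 FPKM in all 6 libraries and was not called, and Cnn1 and Myh11 were below the limit for testing. Vascular and mural markers summed to at most 1.87 FPKM in the BMP4 libraries, and their part in these changes was not tested. Actb, with 285, 228 and 283 FPKM and 340.1, 336 and 324 FPKM, was not called (0.34 ± 0.18).

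The stretch before the start of Myl9 is shown because it holds the CArG box to which serum response factor binds, in capitals. It is chr2:156775214-156775463 on the + strand of GRCm38.p6, from RefSeq.
Myl9: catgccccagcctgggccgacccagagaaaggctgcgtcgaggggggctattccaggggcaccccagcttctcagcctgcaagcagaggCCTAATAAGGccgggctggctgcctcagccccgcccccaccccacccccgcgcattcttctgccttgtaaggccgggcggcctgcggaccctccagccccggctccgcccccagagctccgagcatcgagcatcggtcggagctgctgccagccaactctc
A CArG box (searched by its consensus on both strands) was in this window in 7 of 23 tested genes of the list with an entry (30.4%) and in 176 of 11738 tested genes (1.5%). Of those 7, only Myl9 was called, the others being Actc1, Actg1, Cnn2, Myl6, Srf and Vcl, and Acta2 had no match in this window.

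Among the other filament genes, 11 of 23 intermediate filaments and tubulins were higher (47.8%) and 1 lower (4.35%), against 8.41% and 5.14% of all genes. The lower member was Lmnb1 of the nuclear lamina (16.5, 19.7 and 23 FPKM against 6.55, 6.23 and 6.22 FPKM, -1.61 ± 0.21). Tuba1a, Tuba1b and Tuba1c, alpha-tubulins that rose by 1.28 to 1.69 on the log2 scale, are nearly identical, and fragments may be divided between them. Genes of the extracellular matrix moved in both directions. Ncan, the proteoglycan neurocan, was among the most abundant transcripts of bFGF/BMP4 at 3407, 3247 and 3669.6 FPKM, against 241, 239 and 441 FPKM in BMP4 (-3.55 ± 0.24, adjusted p = 8.82e-06 in limma) and 126, 144 and 131 FPKM on day 0. Hapln4, a link protein, fell with it (-3.81 ± 0.20), but it shares exonic sequence with Ncan on the opposite strand and cannot be told apart from it here. Tnc, tenascin C, was not called (28.6, 35.2 and 33.8 FPKM against 25.7, 23.2 and 28.8 FPKM), while Thbs1, thrombospondin 1, rose (3.39, 4.38 and 2.4 FPKM against 19.6, 16.6 and 13.5 FPKM, 2.28 ± 0.32), as did Spp1, osteopontin (2.68, 2.97 and 2.64 FPKM against 18.7, 26.1 and 15.3 FPKM, 2.78 ± 0.17). Timp2, an inhibitor of matrix metalloproteases, was at 18.4, 27.1 and 27 FPKM and 256, 211 and 227 FPKM (3.27 ± 0.19), and Htra1, a secreted serine protease, at 676, 634 and 633 FPKM and 73.5, 132 and 119 FPKM (-2.63 ± 0.21). Collagens and basement membrane genes had 7 of 28 higher (25%, against 8.41% of all genes) and none lower, led by Col12a1 (3.83 ± 0.23) and Col23a1 (3.46 ± 0.35). Among integrins and focal adhesion genes, 5 of 23 were higher (21.7%) and 4 lower (17.4%), against 8.41% and 5.14% of all genes. Itgav (39.7, 58.6 and 62.9 FPKM against 9.13, 8.78 and 11.2 FPKM, -2.44 ± 0.18) and its partner Itgb3 (-2.51 ± 0.29) were lower. Itga7, a laminin receptor (1.01, 0.886 and 0.765 FPKM against 7.77, 7.06 and 5.96 FPKM, 2.83 ± 0.23), was higher.

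Among called genes, the glutamate receptor, synaptic adhesion and guidance lists held more falls than rises, but only synaptic adhesion had a median well below 0. Of all genes tested, 5.14% were lower and 8.41% higher. Of 29 glutamate and GABA receptor genes, 10 were lower (34.5%) and 6 higher (20.7%), with a median log2 fold change of 0.02. Grm5, a metabotropic receptor of astrocytes and progenitors, was at 7.52, 10.5 and 14.3 FPKM with bFGF and 0.252, 0.133 and 0.225 FPKM without it (-5.14 ± 0.27, adjusted p = 2.79e-06 in limma), and the AMPA receptor subunits went in opposite directions, with Gria4 (5.94, 3.72 and 4.71 FPKM against 0.733, 0.441 and 0.769 FPKM, -2.72 ± 0.30) lower and Gria1 (1.78, 1.82 and 2.42 FPKM against 15.4, 10.01 and 10.8 FPKM, 2.52 ± 0.19) higher. Of 32 genes of synaptic adhesion, 10 were lower and 4 higher, and their median log2 fold change was -0.67. Adgrl3, a latrophilin, was at 6.69, 9.0 and 9.02 FPKM and 1.83, 1.43 and 2.56 FPKM (-2.06 ± 0.22). Beside C1ql1, its relative C1ql3 was among the rises (0.172, 0.386 and 0.563 FPKM against 3.81, 5.14 and 2.63 FPKM, 3.11 ± 0.35). Of 46 guidance molecules, 12 were lower and 7 higher. Sema3e was at 8.94, 8.89 and 9.77 FPKM and 0.418, 0.692 and 0.62 FPKM (-3.80 ± 0.22), and Sema3b at 2.64, 2.43 and 2.01 FPKM and 25.4, 20.3 and 15.3 FPKM (3.03 ± 0.37), while the ephrin Efna1, not detected with bFGF, was at least 16.3-fold higher without it. Of 28 potassium channel genes, 7 were higher (25%) and 4 lower (14.3%). Kcnk2, a background channel, was at 2.83, 2.23 and 2.57 FPKM and 17.5, 22 and 31.7 FPKM (3.13 ± 0.20).

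In metabolism, most lists held few called genes. None of 40 genes of the respiratory chain and none of 43 cytosolic ribosomal proteins was called by limma, nor by limma-voom on rebuilt fragment numbers, and at an unadjusted p-value under 0.05 the former held 0 genes and the latter 4, all lower. Their median log2 fold changes were 0.08 and -0.22. In glycolysis, lactate and glycogen handling, 8 of 29 were higher (27.6%) and 1 lower (3.45%), against 8.41% and 5.14% of all genes. Slc16a1, the transporter of lactate and ketone bodies MCT1, was at 16.7, 22.5 and 20.1 FPKM with bFGF, 457, 559.5 and 345 FPKM without it and 19.6, 19.2 and 17.6 FPKM on day 0 (4.50 ± 0.18, adjusted p = 1.18e-06 in limma). Pfkfb3, an activator of glycolysis, was at 4.31, 11 and 8.33 FPKM and 27.6, 31 and 27.1 FPKM (1.94 ± 0.28), and Pygm, a glycogen phosphorylase, at 129, 71.7 and 82.2 FPKM and 36.4, 31.1 and 39.3 FPKM (-1.36 ± 0.22). The count of 8 was 5 without bFGF/BMP4 replicate 2 or BMP4 replicate 2 and on the TPM scale. Of 30 genes of fatty acid oxidation, 4 were higher (13.3%, against 8.41% of all genes). In cholesterol synthesis 2 of 25 were higher (8%), a share close to the 8.41% of all genes, and the count was 0 without bFGF/BMP4 replicate 1 or BMP4 replicate 2 and 1 without BMP4 replicate 3. Hmgcs1, an early enzyme of that pathway (1.03 ± 0.26), lost its call on the TPM scale (0.96) and without bFGF/BMP4 replicate 1 (0.82) or BMP4 replicate 2 (0.86) or 3 (1.06). Gapdh, which is usually abundant, was at 2.29 to 3.61 FPKM in the 9 libraries, and has many near-identical pseudogenes to which fragments may be lost.

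The metallothioneins Mt1 and Mt2, small proteins that bind zinc and copper, were higher without bFGF. In the list of metallothioneins and antioxidant genes, 9 of 34 were higher (26.5%, against 8.41% of all genes) and 23 were not called. Gpx3 and Txn1 were lower (5.88%, against 5.14%), and only 1 of them without bFGF/BMP4 replicate 3 or BMP4 replicate 1 or 3. Mt1 was at 694, 574 and 445 FPKM with bFGF and 3902, 6308 and 3259 FPKM without it (2.94 ± 0.29, adjusted p = 7.1e-05 in limma), and Mt2, its neighbour on chromosome 8, at 9.74, 18.7 and 12.6 FPKM and 179, 153 and 92.9 FPKM (3.36 ± 0.46). Mt3 had a log2 fold change of 1.01 ± 0.33 with an adjusted p-value of 0.0542 in limma and was not called. The bases before the starts of Mt1 and Mt2 are shown for the core of the metal response element, to which the zinc sensor MTF1 binds, searched as TGCNCNC on both strands and set in capitals. They are chr8:94178839-94179088 for Mt1 and chr8:94172368-94172617 for Mt2, both on the + strand of GRCm38.p6.
Mt1: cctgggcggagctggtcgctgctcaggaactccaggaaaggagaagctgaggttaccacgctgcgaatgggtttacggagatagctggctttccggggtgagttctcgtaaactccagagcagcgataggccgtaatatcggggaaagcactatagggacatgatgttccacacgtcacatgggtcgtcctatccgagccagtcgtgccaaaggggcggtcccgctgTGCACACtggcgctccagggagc
Mt2: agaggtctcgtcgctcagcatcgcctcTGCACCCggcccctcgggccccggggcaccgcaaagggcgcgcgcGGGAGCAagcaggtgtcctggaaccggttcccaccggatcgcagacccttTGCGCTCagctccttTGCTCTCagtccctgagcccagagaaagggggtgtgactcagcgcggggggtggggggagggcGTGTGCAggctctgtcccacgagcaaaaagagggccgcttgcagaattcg
These few letters were in the same window of 57.4% of all tested genes with an entry, with 1 match in Mt1 and 5 in Mt2. Each window stops at the RefSeq start, and bases past it were not searched. The match numbers therefore depend on where that start is placed and do not compare the full promoters of both genes.

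Immediate early genes had 10 of 24 higher (41.7%) and 2 lower (8.33%), against 8.41% and 5.14% of all genes. Atf3, a stress-induced transcription factor, led the rises with 0.26, 0.182 and 0.316 FPKM and 6.95, 6.51 and 5.52 FPKM (4.20 ± 0.28, adjusted p = 8.82e-06 in limma). The 2 lower members, Egr4 and Nr4a2, both lost their calls when bFGF/BMP4 replicate 1 or 3 was left out, and Egr4 also without BMP4 replicate 2 or 3. Of 33 interferon response and MHC class I genes, 9 were higher (27.3%, against 8.41% of all genes) and none lower. Their median log2 fold change was 0.56. Gbp2, an interferon-induced GTPase, was at 0.0742, 0.0777 and 0.108 FPKM and 3.4, 2.8 and 1.23 FPKM (3.68 ± 0.47), and Usp18, a brake on interferon signalling, at 0.245, 0.234 and 0.317 FPKM and 2.34, 2.59 and 1.91 FPKM (2.70 ± 0.29). The MHC genes H2-K1, H2-D1 and B2m were not called. Lysosomal genes had 3 of 42 higher, or 7.14%, a share below that of all genes tested.

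**Figure D5:**
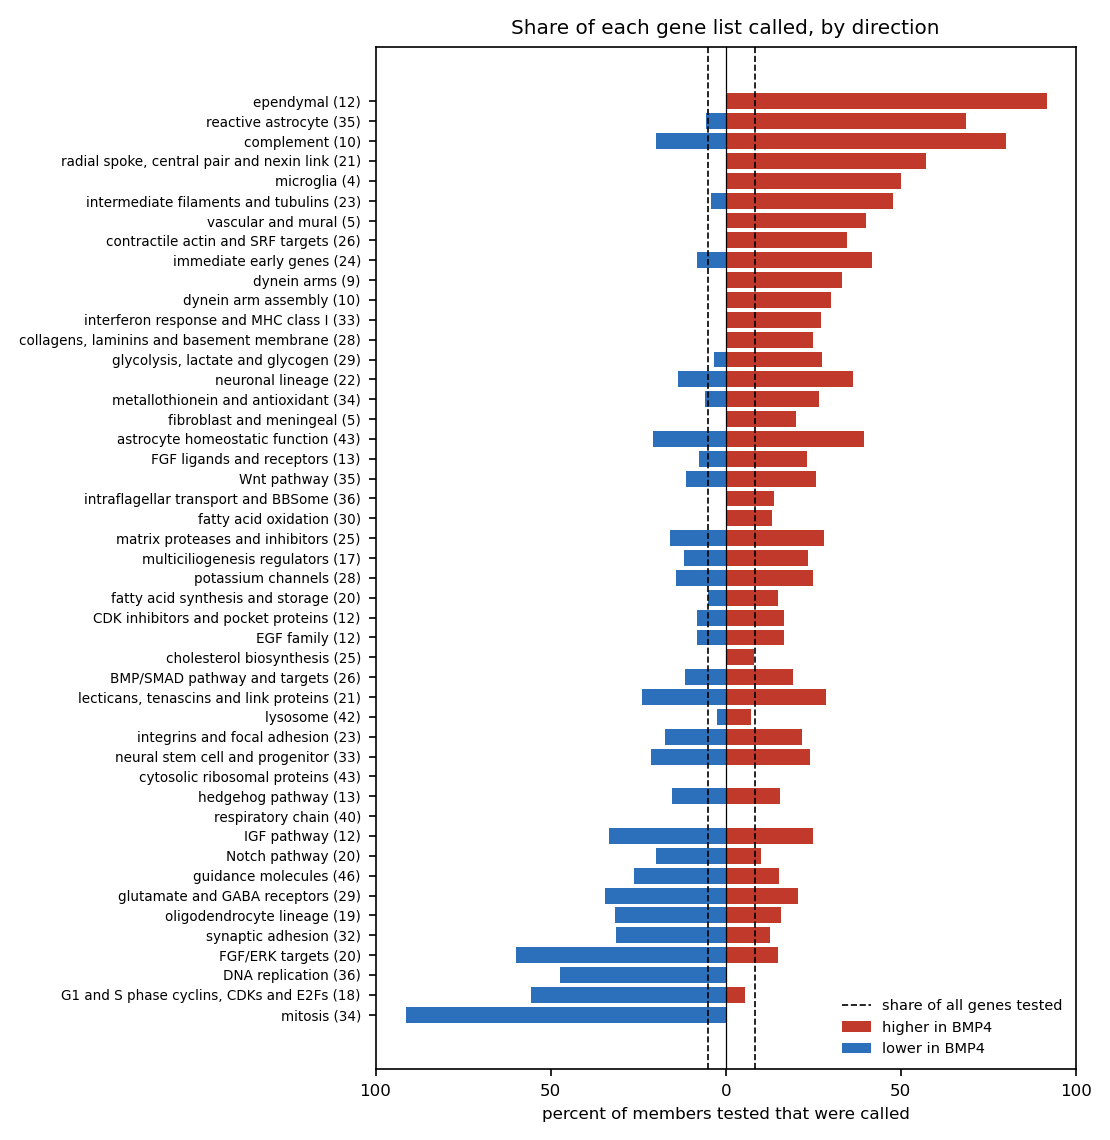
Percent of the tested members of each of 47 gene lists called higher (red, to the right) or lower (blue, to the left) in BMP4, with the number tested in parentheses. The dashed lines mark the shares of all genes tested, 8.41% higher and 5.14% lower, and the lists run from ependymal (91.7% higher) at the top to mitosis (91.2% lower) at the bottom.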

How the data were processed

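RNA-seq of 9 libraries was analysed from the deposited gene table. Per the submitters' processing notes, reads were trimmed with fastp 0.19.7, aligned to the mouse genome (mm39) with HISAT2 2.0.5 and counted with featureCounts 1.5.0-p3, and the authors deposited FPKM values, which are scaled to transcript length and library total. Whether counting used strand is not given in the sources used here. The study tested counts with a count model. The values analysed here are the FPKM values of the series table, to which such a model does not apply, so log2(FPKM + 0.1) of the 20207 genes with a mean of at least 0.1 FPKM was fitted with limma 3.58.1 (eBayes with trend, R 4.3.3) over all 3 groups, with Benjamini-Hochberg adjustment over all genes. The script was tested on simulated data. Standard errors (±) are those of the fit, with 3 libraries in each group. The genes and lists were chosen with earlier results of these data known. Named genes were the 10 largest rises and falls among called protein-coding genes with a mean of at least 5 FPKM and groups apart, the 2 largest called rises and falls of each list, and a set of key genes, of which some items are not reported here. The other genes named are members of the lists, or of the marker sets, and were chosen after their values were seen. Fragment numbers were rebuilt from the FPKM values, and intervals were not given because fragments carry no molecular identifiers. Gene names came from GENCODE vM39 and promoter bases from RefSeq (GRCm38.p6), with an entry under the same symbol for 11738 of the genes tested. Alternatives were another pseudocount, 2 filters, TPM and median-ratio scaling, limma-voom on fragment numbers, a fit of the 6 compared libraries, a replicate block, no fold threshold and leaving out each library.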

Additional observations from a re-analysis of the deposited data

How the results depend on the processing

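Counts of called genes moved by more than 1.5 times under 3 settings. With a pseudocount of 1 there were 890 higher and 559 lower genes, among genes with a mean of at least 1 FPKM 1012 were higher, and with no fold threshold 1797 were lower. The cause was not tested, beyond the fewer genes tested with the stricter filter (12947) and the added genes under 2-fold without the threshold. Leaving out each library in turn gave 1496 to 1681 higher and 893 to 1067 lower genes. No filter, TPM, median-ratio scaling, limma-voom and the fit of the 6 compared libraries gave 1544 to 1895 higher and 993 to 1125 lower genes, and no gene called in the main analysis changed sign under any setting run. The replicate numbers did not pair the libraries (correlations of same-numbered deviations 0.00024 to 0.0398, and not every library was closest to its own number), and with a replicate block 1616 genes were higher and 996 lower. Of 148 named genes that were called, 35 lost the call under at least 1 setting, 31 of them with a pseudocount of 1, and Hes5 gained one under 4. Where no member of a list was called in a direction, limma-voom called none either, except 1 lower gene each among collagens and fatty acid oxidation. At an unadjusted p-value under 0.05 those lists held 0 members in that direction, apart from radial spokes (1 lower), collagens (6), cholesterol (4), fatty acid oxidation (3) and ribosomal proteins (4). With a pseudocount of 1, low genes shrink most, and members called higher were 3 of collagens, 5 of interferon response and 2 of intraflagellar transport genes. Genes near the floor of 3 fragments in a library have no measured fold at this depth.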
